A study of Homo sapiens with 6 samples.

Results

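Matrix metalloproteases (MMP genes), their inhibitors (TIMP genes and RECK) and the related proteases of the ADAM and ADAMTS families were followed in RNA recovered with an antibody against AGO2. Members were taken by gene symbol from the array's probe table, using probe sets with a single symbol and, for each gene, the probe set with the highest mean over the 6 arrays. This gave 65 of the 18417 genes measured, made up of 22 MMP genes, 5 inhibitor genes, 21 ADAM genes and 17 ADAMTS genes. All samples were PC3 cells, an androgen-independent prostate cancer cell line. Cells of 3 arrays had been transfected with a miR-205 mimic and cells of the other 3 arrays with a negative control mimic, and AGO2 was precipitated in every one. The series design describes each set as biological triplicates. The series was made to find transcripts targeted by miR-205. All values are RMA log2 intensities, and input RNA was not analysed here, so a change in binding to AGO2 and a change in transcript abundance cannot be told apart.

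Metalloproteases are enzymes that use a zinc ion to cut proteins. MMPs and most ADAMTS enzymes act on the extracellular matrix, whereas ADAMs sit in the cell membrane and release the outer parts of other membrane proteins, a step called shedding. TIMPs are secreted proteins that block the active site, and RECK is an inhibitor anchored to the cell surface. In carcinoma cells these enzymes are known for their part in invasion, growth factor release and Notch signalling.

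The microRNA itself is encoded on human chromosome 1 at chr1:209432166-209432187 (GRCh38.p14, plus strand, RefSeq). Its mature sequence is shown because this microRNA is what sets the labelled groups apart, with the seed, bases 2 to 8, in capitals.
hsa-miR-205-5p: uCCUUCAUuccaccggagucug

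Of the 65 genes, 15 passed the test (limma, adjusted p under 0.05 over all genes), 5 higher and 10 lower with miR-205. That is 23.1% of the genes, against 26.6% of all genes tested. In the higher direction the share was 7.69% against 12.6%, and in the lower direction 15.4% against 14.0%. The count of changed members was therefore near the background of this comparison. The median log2 difference of the 65 genes was -0.04, beside -0.02 over all genes. For 20 of the 65 genes every miR-205 array lay on 1 side of every control array (30.8%, against 42.2% of all genes). Changes of 1.5-fold or more were found in 5 of the 15, beside 873 of the 4906 genes that passed among all genes. The 5 members were ADAM12, MMP14 and RECK on the lower side and MMP10 and ADAMTS1 on the higher side.

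**Figure D1:**
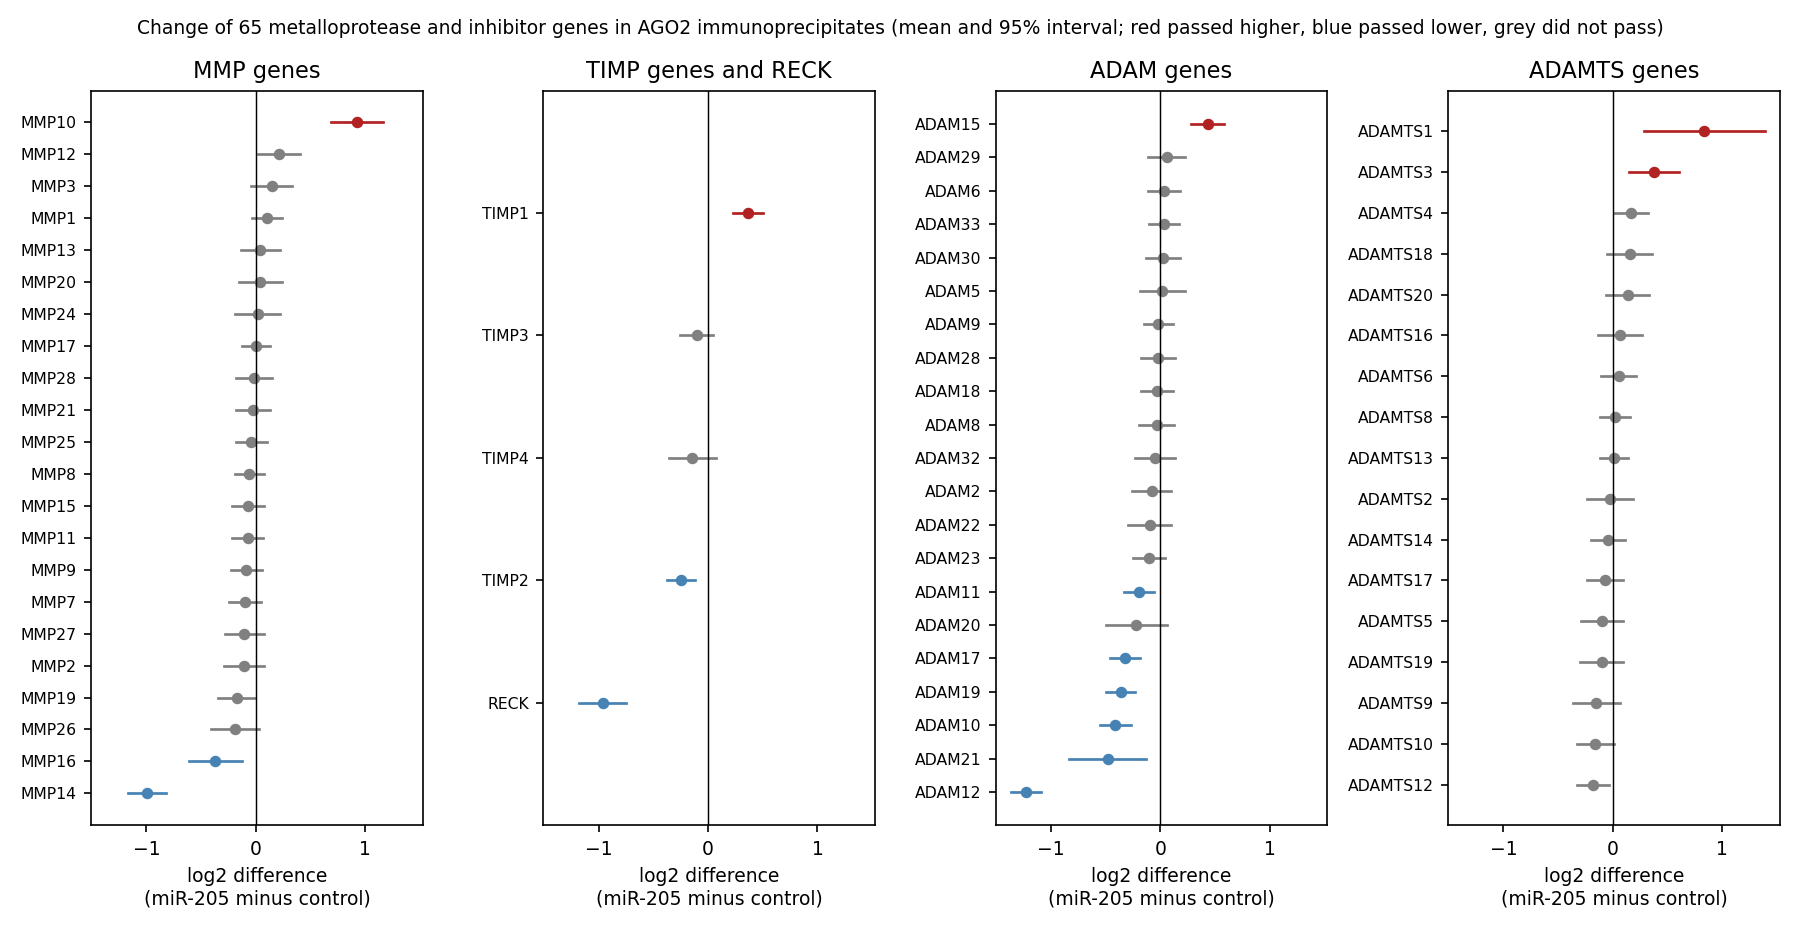
Log2 difference between miR-205 and negative control mimic for each of the 65 genes, with the 95% interval from limma, in 4 panels by family; red genes passed higher, blue genes passed lower and grey genes did not pass. MMP14 (-0.99), RECK (-0.96) and ADAM12 (-1.23) lie far to the left and MMP10 (0.92) to the right, while most genes lie close to 0.

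Dim probe sets limit what can be seen. As a reference for transcripts with little or no expression, 341 olfactory receptor genes were used, 95% of which had a mean under 6.04. The mean of 37 of the 65 genes was higher than that. All 15 genes that passed belonged to these 37 (40.5%, with 13.5% higher and 27% lower). Among all genes above that level 33.8% passed (15.8% higher and 18% lower), and among those not above it 6.34%. The difference between these shares was not tested. The 28 dimmer members included MMP2, MMP3, MMP7, MMP8, MMP12, TIMP3, ADAM28 and ADAMTS5. By limma 0 of the 28 passed, and 4 had an unadjusted p under 0.05, so a change of these transcripts could be missed.

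The arrays themselves were alike in level, with medians of 6.82 to 6.86. Negative control replicate 2 stood apart from the other arrays in its effect on the whole comparison. Without it 2668 genes passed higher and 2881 lower by limma, against 2320 and 2586 with all arrays, whereas leaving out any other single array gave 1588 to 1711 higher and 1777 to 2098 lower. Its values are given beside the members they touch. Of the 15 genes that passed, 8 had this array as the control array nearest to the miR-205 level. In these 8 its shift from the mean of the other controls ran from 0.01 in ADAM19 to 0.98 in ADAMTS1. The like count over all genes was not made. Of 8 measured prostate epithelium markers all lay above 6.04, with KLK3, an androgen-dependent prostate gene, barely so (6.08 in the control on average). These markers moved with the groups. Their mean ranged from 9.70 to 9.76 with miR-205 and from 9.05 to 9.07 in the control. By limma 4 rose and 1 fell (62.5% passed, beside 33.8% of all genes above 6.04). The adhesion gene EPCAM rose by 2.29 ± 0.10 (limma adjusted p = 6.7e-06), 4.91-fold, and CDH1 rose by 1.91 ± 0.06. The keratin genes KRT8 (0.89 ± 0.07, limma adjusted p = 6.39e-05) and KRT18 (0.55 ± 0.06, limma adjusted p = 0.000274) rose as well, while KRT19 had -0.03 ± 0.06 and did not pass. VIM, the vimentin gene typical of mesenchymal cells, fell by 0.26 on the log2 scale (limma adjusted p = 0.00968). The part of this shift in the changes of the metalloprotease genes was not tested. Of 9 fibroblast markers, a cell type that often makes MMPs, 5 lay above 6.04. The mean of all 9 ranged from 5.67 to 5.82 with miR-205 and from 5.66 to 5.76 in the control, with members called in both directions. LUM, far below the reference, rose by 0.36 ± 0.11 (limma adjusted p = 0.0459), and PDGFRA had -0.31 ± 0.10 (limma adjusted p = 0.0493). The leukocyte gene PTPRC was dim, between 3.53 and 3.68 on every array. In RNA recovered with AGO2 from a whole culture, fewer cells of a kind, less RNA per cell and less binding to AGO2 cannot be told apart.

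Among the MMPs 2 genes fell, and both encode membrane-type enzymes. They were 2 of the 6 membrane-type genes (33.3%), and all 6 were above the olfactory receptor reference. Among all genes above that reference 33.8% passed, and 18% passed lower. The difference between MMP classes was not tested. MMP14, the membrane-type enzyme that cuts collagen at the cell surface and activates the precursor of MMP2, stood at 9.10, 9.20 and 8.99 with miR-205 (replicates 1 to 3). In the control arrays it stood at 9.99, 10.19 and 10.09. The groups were well apart, and the level with miR-205 was lower by a log2 difference of -0.99 ± 0.08 (SE, n = 3 per group, limma adjusted p = 7.34e-05), or 1.99-fold. MMP14 passed under all 15 alternative settings, with differences of -1.05 to -0.94.

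MMP16, another membrane-type MMP, was at 9.72, 9.48 and 9.71 with miR-205 and at 10.03, 9.81 and 10.18 in the control. The lowest control array, replicate 2, lay just above the highest miR-205 array. The log2 difference was -0.37 ± 0.11 (limma adjusted p = 0.0319), and -0.47 without that array. The call was lost when any other single array was left out. A second probe set of MMP16, not used for the gene, gave -0.16 ± 0.08, and with the mean of both the gene no longer passed. The other 4 membrane-type genes, MMP15, MMP17, MMP24 and MMP25, had differences between -0.07 and 0.02 and did not pass.

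MMP10, a stromelysin with a broad range of matrix substrates, was the MMP that rose. It stood at 7.11, 7.13 and 7.06 with miR-205 and at 6.14, 5.97 and 6.41 in the control. The miR-205 arrays lay close together and the control arrays were more spread. The log2 difference was 0.92 ± 0.10 (limma adjusted p = 0.000415), a 1.90-fold rise from a control mean of 6.18 that was close to the olfactory receptor reference, so its size is less certain than its direction. In MMP10, negative control replicate 2 was the lowest control array and lay away from the miR-205 level. The gene passed under all 14 alternatives in which it was tested.

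By the RefSeq annotation, MMP10 lies in a run of 9 neighbouring MMP genes with no other coding gene between them. In order these are MMP7, MMP20, MMP27, MMP8, MMP10, MMP1, MMP3, MMP12 and MMP13. Of these 9 genes MMP10 passed and the other 8 did not. Its neighbour on one side, MMP8, had a difference of -0.06 ± 0.06 and was dim at 3.23 on average. On the other side MMP1, the interstitial collagenase, had a difference of 0.10 ± 0.06 (limma adjusted p = 0.256). MMP1 was bright, at 11.00, 11.06 and 11.11 with miR-205 and 10.91, 10.96 and 10.99 in the control, so the groups just failed to overlap. MMP13, a further collagenase, was bright as well, with 10.56, 10.38 and 10.52 with miR-205 against 10.34, 10.43 and 10.56, and its groups overlapped (0.04 ± 0.08). The 95% interval of the difference ran from -0.03 to 0.24 for MMP1 and from -0.13 to 0.22 for MMP13, below the 0.69 to 1.16 of MMP10. The difference between these genes was not tested.

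**Figure D2:**
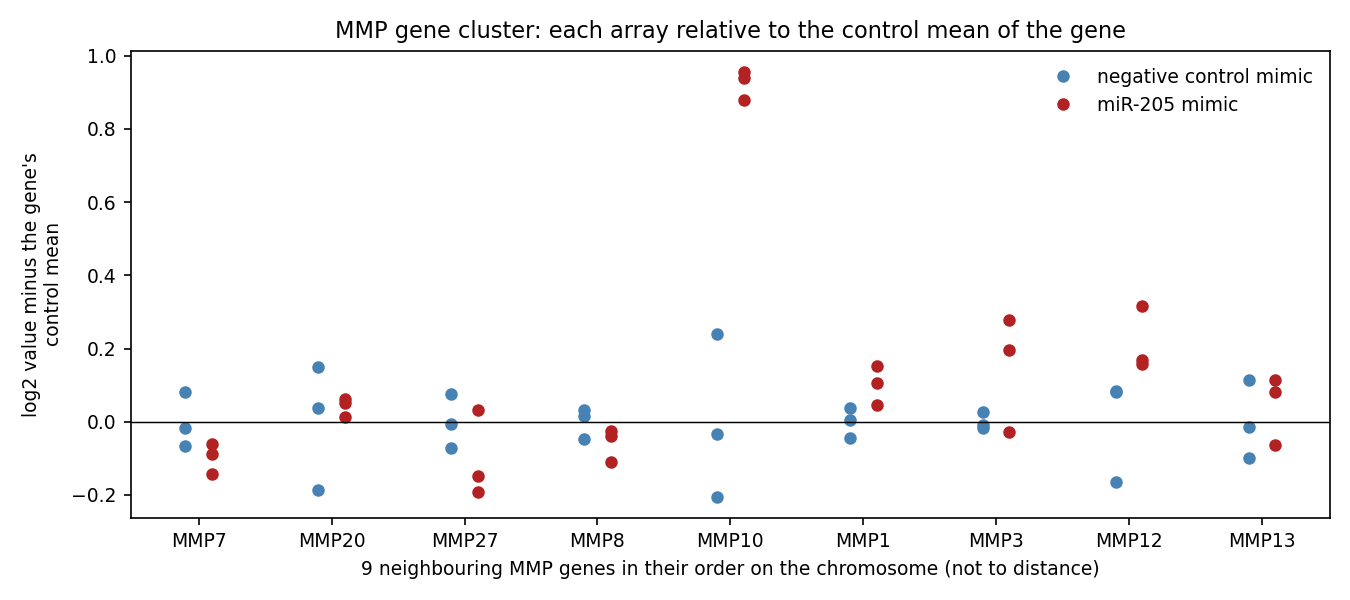
Value on each array minus the control mean of the gene (log2 scale, vertical axis) for the 9 neighbouring MMP genes in chromosome order (horizontal axis), with control arrays in blue and miR-205 arrays in red. The 3 miR-205 arrays of MMP10 stand near 0.92, while those of the other 8 genes stay between -0.19 and 0.32.

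Many MMP genes are textbook targets of the transcription factor AP-1. The pattern TGANTCA, a loose form of its binding motif in which N is any base, was used. This pattern reads the same on both strands. It was searched in the RefSeq promoter table, in windows from 250 bases before to 50 bases after each start. Of these windows, 39 belonged to 38 of the 65 genes, and 4 of the 39 (10.3%) held the pattern, beside 7.71% of all 35116 windows. At N the match has G in MMP7 and A in MMP10, MMP20 and ADAMTS12. The matches are shown because 3 of the 4 genes lie in the MMP run and only MMP10 among the 4 passed. Members without a window could not be searched. A gene not shown here, in the run or outside it, therefore need not lack the pattern. The stretches read 5′ to 3′ on the gene's strand (minus strand of GRCh38.p14 in each case), with the match in capitals. They lie at chr11:102780679-102780705 for MMP10, chr11:102530798-102530824 for MMP7, chr11:102625428-102625454 for MMP20 and chr5:33892058-33892084 for ADAMTS12.
MMP10: aacacatgcaTGAATCAtactgttggt
MMP7: aacactcaaaTGAGTCAcctatttcca
MMP20: gtttgagacaTGAATCAtccttgctcg
ADAMTS12: cactgtcagcTGAATCActcccctttt

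In MMP10 and in MMP7 the match begins 67 bases before the start of the gene. MMP7, a matrilysin, was dim and had a difference of -0.10 ± 0.06, and MMP20, an enzyme of tooth enamel, was dim with 0.04 ± 0.09. ADAMTS12 had -0.18 ± 0.06 (limma adjusted p = 0.0681). A match describes these letters only and was not tested for binding.

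The remaining MMPs moved little. MMP9, a gelatinase that cuts basement membrane collagen, was at 6.46, 6.47 and 6.51 with miR-205 and at 6.61, 6.61 and 6.48 in the control, and the groups overlapped. Its difference was -0.09 ± 0.06, with a 95% interval from -0.23 to 0.05. MMP2, the other gelatinase, had -0.11 ± 0.08 (-0.29 to 0.08) and MMP3, a stromelysin, 0.15 ± 0.08 (-0.04 to 0.34), with overlapping groups in each. Of all members that missed the threshold, MMP12, the macrophage elastase, had the largest positive difference (0.21 ± 0.08, limma adjusted p = 0.098), and its control mean of 3.66 was dim. In all, 1 of the 22 MMP genes rose and 2 fell, while 19 missed the threshold, and the median difference was -0.05. The share that passed was 13.6%, against 26.6% of all genes. Only 12 of the 22 were above the olfactory receptor reference, where 33.8% of all genes passed.

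The inhibitors differed in direction. RECK, which restrains MMP14, MMP2, MMP9 and ADAM10 at the cell surface, stood at 7.06, 7.03 and 7.14 with miR-205. In the control it stood at 8.15, 7.82 and 8.15, with replicate 2 nearest to the miR-205 arrays. The difference was -0.96 ± 0.09 (limma adjusted p = 0.000207), 1.95-fold lower, and -1.07 without that control array. RECK passed under all 14 alternatives in which it was tested.

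TIMP1, a secreted inhibitor of most MMPs, moved the other way. Its arrays read 13.11, 13.13 and 13.21 with miR-205 and 12.74, 12.78 and 12.82 in the control, with no overlap. The difference was 0.37 ± 0.06 (limma adjusted p = 0.00251), a 1.29-fold rise. It passed under all 15 alternatives, between 0.27 and 0.39.

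TIMP2, which blocks MMP2 and also forms the complex with MMP14 in which MMP2 is activated, read 12.15, 12.11 and 12.06 with miR-205 and 12.33, 12.36 and 12.37 in the control. The groups did not overlap, and the difference was small, at -0.25 ± 0.06 (limma adjusted p = 0.0133). The call was lost without miR-205 replicate 2 and without miR-205 replicate 3. TIMP3, the matrix-bound inhibitor of ADAM17 and of several ADAMTS enzymes, was dim and had -0.10 ± 0.07. A second and dimmer probe set of TIMP3 read 0.21 ± 0.12, so its direction is not settled. TIMP4 had -0.14 ± 0.09, with a 95% interval from -0.35 to 0.07. Over the 5 inhibitor genes 1 rose, 2 fell and 2 did not pass. That is 60% passed, beside 26.6% of all genes and 33.8% of those above the olfactory receptor reference. With 5 genes the share describes these genes only.

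Of the 21 ADAM genes 6 fell, 1 rose and 14 did not pass. That is 28.6% lower, against 14.0% of all genes, and 33.3% in either direction, against 26.6% of all genes and 33.8% of those above the olfactory receptor reference. Of the 6 that fell, ADAM11 and ADAM21 were near the threshold. The largest difference among the 65 genes was that of ADAM12. Also called meltrin alpha, ADAM12 sheds growth factor ligands and binds integrins. It read 8.49, 8.47 and 8.38 with miR-205 and 9.72, 9.65 and 9.67 in the control. The groups were more than 1 log2 unit apart, with a difference of -1.23 ± 0.06 (limma adjusted p = 1.18e-05), or 2.35-fold lower. All 15 alternatives gave a fall that passed, between -1.25 and -1.20.

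ADAM10 and ADAM17, the sheddases with the widest range of substrates, were both lower by less. ADAM10, which makes the first membrane cut of Notch receptors, read 11.21, 11.09 and 11.11 with miR-205 and 11.54, 11.51 and 11.60 in the control. Its difference was -0.41 ± 0.06 (limma adjusted p = 0.00174). ADAM17, the converting enzyme of TNF and of several EGF-family ligands, read 9.96, 9.87 and 9.87 against 10.17, 10.27 and 10.23. Its difference was -0.33 ± 0.06 (limma adjusted p = 0.00491). In neither gene did the groups overlap, and both passed under all 15 alternatives.

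ADAM19, also called meltrin beta, fell by a like amount. It stood at 11.07, 11.14 and 11.01 with miR-205, below the control arrays at 11.44, 11.43 and 11.44. The difference was -0.36 ± 0.06 (limma adjusted p = 0.00267), and it passed under all 15 alternatives. ADAM15, an ADAM that binds integrins through its disintegrin domain, was the family member that rose. Its values were 10.83, 10.93 and 11.00 with miR-205 and 10.43, 10.50 and 10.54 in the control. The difference was 0.43 ± 0.07 (limma adjusted p = 0.00192), a 1.35-fold rise that also passed under all 15 alternatives.

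ADAM11, a form without protease activity that is known from the nervous system, had -0.20 ± 0.06 (limma adjusted p = 0.0439). It was no longer called when any 1 array other than negative control replicate 2 was left out. ADAM21, known from the testis, spread widely with miR-205, at 6.55, 6.91 and 7.26, against 7.29, 7.42 and 7.46. Its highest miR-205 array almost reached the lowest control array, and the difference of -0.48 ± 0.15 (limma adjusted p = 0.0466) was lost without any 1 array other than miR-205 replicate 3. Its size also moved with single arrays, to -0.31 without miR-205 replicate 1 and to -0.66 without miR-205 replicate 3.

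A separate probe set that carries the symbols of both ADAM21 and the pseudogene ADAM21P1 was outside the member rule. It read 7.20, 7.33 and 7.47 with miR-205 and 8.11, 8.30 and 8.26 in the control, with no overlap. In a fit over all probe sets of the array it had -0.89 ± 0.09 (limma adjusted p = 0.00226), and the ADAM21 probe set did not pass there (0.113). The probe set shared by MMP23A and MMP23B read 0.03 ± 0.06 in that fit and did not pass.

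Grouped by activity, 6 of the 12 ADAM genes that encode active proteases passed (5 lower, 1 higher), and 1 of the 7 that encode inactive forms. These are shares of 50% and 14.3%, beside 26.6% of all genes and 33.8% of those above the olfactory receptor reference, and the difference between the classes was not tested. Only 3 of those 7 were above the olfactory receptor reference, against 9 of the 12, so the dimness of the inactive forms moves with this contrast and its part was not tested. ADAM9, an active sheddase with a bright probe set, read 11.41, 11.40 and 11.32 with miR-205 and 11.40, 11.38 and 11.41 in the control. The groups overlapped, and the 95% interval of the difference ran from -0.15 to 0.11. ADAM8 (-0.04 ± 0.07) and ADAM33 (0.03 ± 0.06) also overlapped. ADAM20, a testis gene that neighbours ADAM21 in the genome, had the largest fall of those that missed the threshold (-0.22 ± 0.12, limma adjusted p = 0.226), was dim and passed once negative control replicate 2 was left out (-0.35). The fit that dropped control array 3 gave -0.08.

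**Figure D3:**
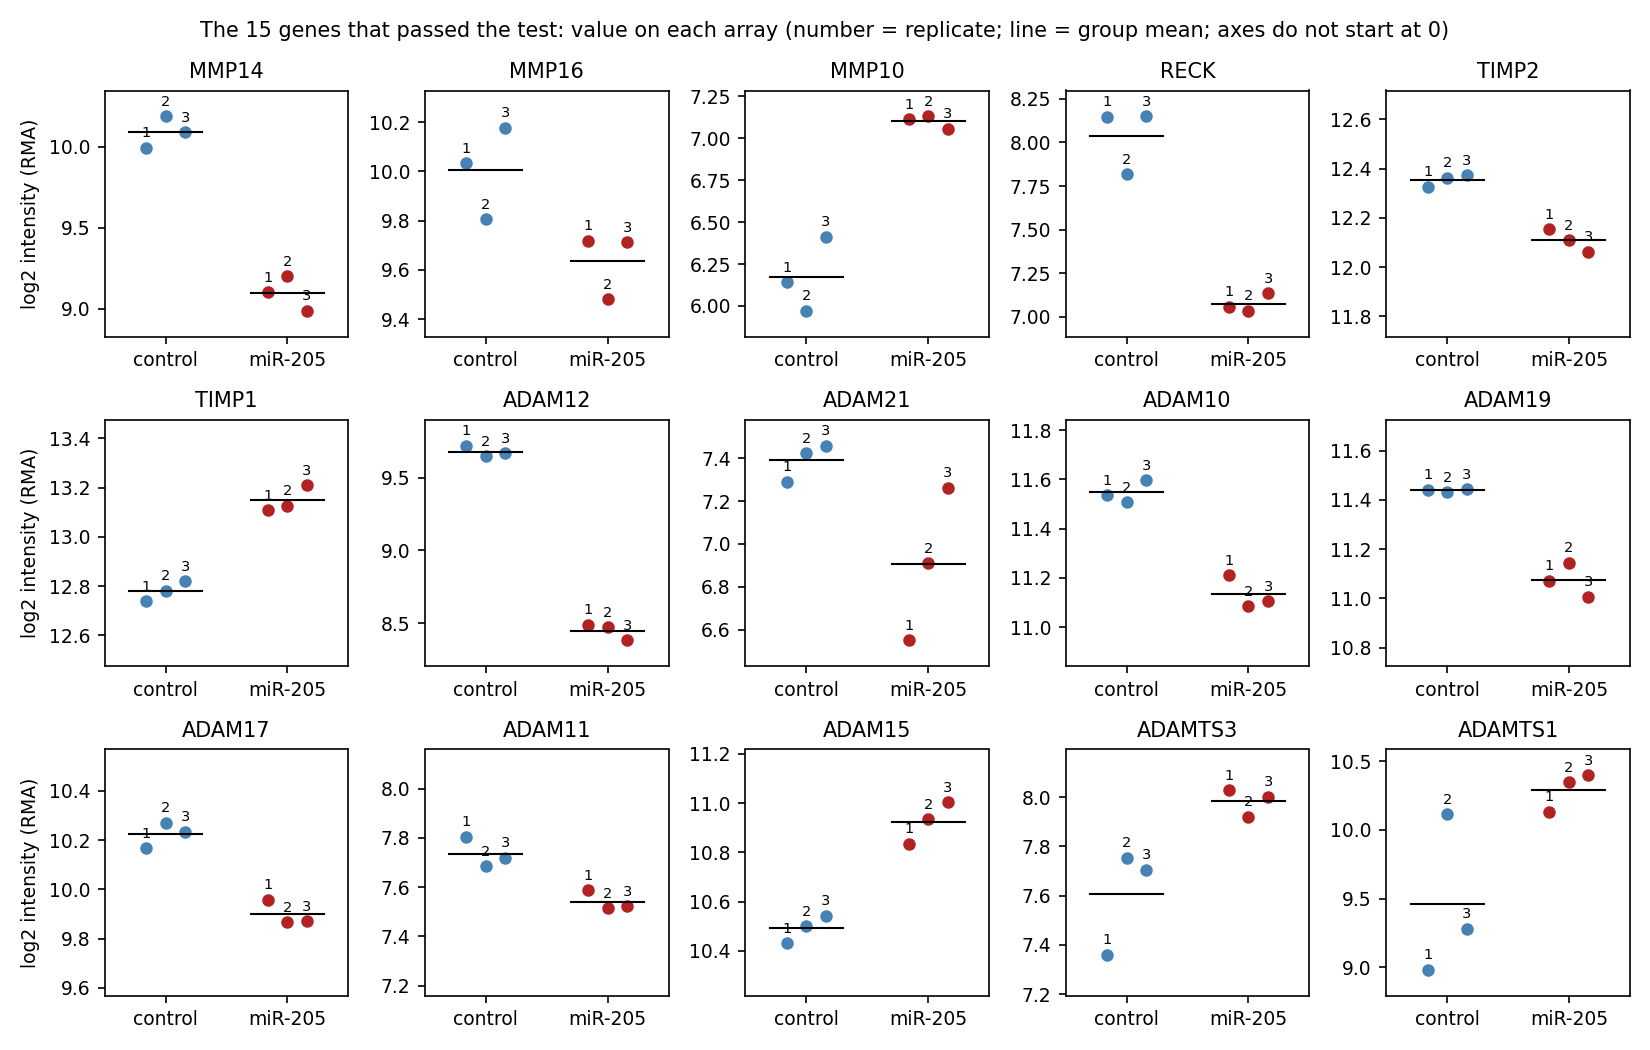
Log2 intensity on each array (points, numbered by replicate) and group means (lines) for the 15 genes that passed, with the negative control mimic in blue and the miR-205 mimic in red; each panel has its own axis, which does not start at 0. The groups are wide apart for MMP14, MMP10, RECK and ADAM12, nearly touch for ADAM21 and MMP16, and in ADAMTS1 control replicate 2 (10.11) lies close to the lowest miR-205 array (10.13).

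In the ADAMTS family 2 of 17 genes rose and 0 fell by limma, with 1 gene lower at an unadjusted p under 0.05. The share that rose, 11.8%, was near the 12.6% of all genes, and 14.0% of all genes fell. ADAMTS1, which cuts the proteoglycans aggrecan and versican, read 10.13, 10.35 and 10.40 with miR-205. The control arrays were split, with 8.98 and 9.28 in replicates 1 and 3 and 10.11 in replicate 2. The difference was 0.84 ± 0.24 (limma adjusted p = 0.0336), and it was 1.16 ± 0.11 without control replicate 2. The call ended when any 1 of the other arrays was left out (differences down to 0.60) or when the variance was modelled robustly with a trend. ADAMTS3, which trims procollagen and activates VEGFC, read 8.03, 7.92 and 8.00 with miR-205 and 7.36, 7.75 and 7.71 in the control. Its difference was 0.38 ± 0.10 (limma adjusted p = 0.0253), and it was lost without any 1 of the miR-205 arrays.

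The other proteoglycan-cutting members, ADAMTS4, ADAMTS5, ADAMTS8, ADAMTS9 and ADAMTS20, lay between -0.15 and 0.16 and did not pass. The other procollagen-processing members, ADAMTS2 and ADAMTS14, lay at -0.02 and -0.04. ADAMTS13, which cuts von Willebrand factor, had 0.01 ± 0.06. Over the family the median difference was 0.01, and 9 of the 17 genes were above the olfactory receptor reference.

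Genes that act around the proteases were taken from lists chosen with earlier results of these data known. Of 44 measured activators, inhibitors and partners, 6 rose and 7 fell (29.5%, near the 26.6% of all genes), with a median difference of -0.05. Of the 7 genes listed there as other inhibitors 4 passed, each higher (57.1%). Of all genes 12.6% passed higher, and of those above the olfactory receptor reference 15.8%. With 7 genes chosen with results known, the count is a description of these genes only. SPINT1, an inhibitor of the membrane serine proteases matriptase and hepsin, read 10.31, 10.35 and 10.37 with miR-205 and 9.13, 9.24 and 9.47 in the control. That is a difference of 1.07 ± 0.09 (limma adjusted p = 9.76e-05). SPINT2, its paralog, rose by 0.57 ± 0.06, and SERPINB5, the serpin called maspin, by 0.86 ± 0.07. TFPI2, an inhibitor of plasmin that was named after its values were seen, had 0.89 ± 0.18. In TFPI2 the control replicate 2 array read 10.06, against 9.34 and 9.47 in the other control arrays.

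Of 10 measured activators 1 rose and 2 fell (30%, beside 26.6% of all genes). The 1 that rose was ST14, the matriptase gene, named after its values were seen (0.31 ± 0.09, limma adjusted p = 0.0316). PLAT, the tissue plasminogen activator, fell by 0.64 on the log2 scale (11.43, 11.56 and 11.46 against 12.09, 12.15 and 12.15, limma adjusted p = 0.00019). PLAU, the urokinase gene, did not pass (0.45 ± 0.23), with control replicate 2 at 12.30 and the other control arrays at 11.37 and 11.26. Of 4 membrane partners 1 rose and 1 fell (50%, beside 26.6% of all genes). The caveolin gene CAV1 had -0.47 ± 0.07. CD9, named after its values were seen, had 0.32 ± 0.07 (limma adjusted p = 0.00854). FURIN, named after its values were seen, encodes the convertase that removes the prodomain of MMP14 and of many ADAMs. It had -0.23 ± 0.06, a call that was lost when any 1 array other than negative control replicate 1 was left out.

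ADAM10 and ADAM17 rely on partners for their trafficking. Of 9 trafficking partners 2 fell (22.2%, beside 14.0% of all genes that passed lower). These 2 were TSPAN5 (-0.36 ± 0.06) and TSPAN33 (-0.27 ± 0.07), both tetraspanins that carry ADAM10 and both named after their values were seen. TSPAN33 was not called without miR-205 replicate 1 or without miR-205 replicate 3. The tetraspanin genes TSPAN14 (-0.07), TSPAN15 (0.12) and TSPAN17 (-0.01) did not pass. The ADAM17 partners RHBDF1 (0.07 ± 0.08), RHBDF2 (-0.08 ± 0.07) and FRMD8 (0.19 ± 0.11) did not pass either.

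Of 28 measured transmembrane proteins that ADAM10 or ADAM17 is known to shed, 5 rose and 8 fell. That is 46.4%, against 26.6% of all genes, and 26 of the 28 were above the olfactory receptor reference, where 33.8% of all genes passed. IL6R, the receptor chain for interleukin-6 whose soluble form arises by shedding, read 9.24, 9.23 and 9.10 with miR-205 and 10.54, 10.14 and 10.71 in the control. Its difference was -1.27 ± 0.13 (limma adjusted p = 0.000257). The receptor gene NOTCH1 had -0.50 ± 0.07, next to NOTCH2 at -1.40 ± 0.07. On the higher side stood CDH1, the E-cadherin gene (1.91 ± 0.06), and EREG, an EGF-family ligand (0.47 ± 0.07).

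Of 21 measured matrix proteins that MMP or ADAMTS enzymes cut, 5 fell and 1 rose (28.6%, beside 26.6% of all genes). By direction 23.8% fell, beside 14.0% of all genes and 18% of those above the olfactory receptor reference. The share that rose was 4.76%, beside 12.6% of all genes. TNC, which encodes tenascin-C, read 9.86, 9.84 and 9.88 with miR-205 and 10.97, 11.09 and 11.12 in the control, a difference of -1.20 ± 0.06 (limma adjusted p = 1.57e-05). Fibronectin, FN1, had -0.63 ± 0.06, and nidogen, NID1, had -0.74 ± 0.08. The collagen genes COL4A1 (-0.60 ± 0.07) and COL4A2 (-0.45 ± 0.08), which encode the chains of the main basement membrane collagen, were lower too. THBS1, a thrombospondin, had 0.72 ± 0.19, with control replicate 2 at 11.67 against 10.91 and 10.95 in the other control arrays. Its call was lost without miR-205 replicate 2 or 3 or without negative control replicate 1 or 3.

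**Figure D4:**
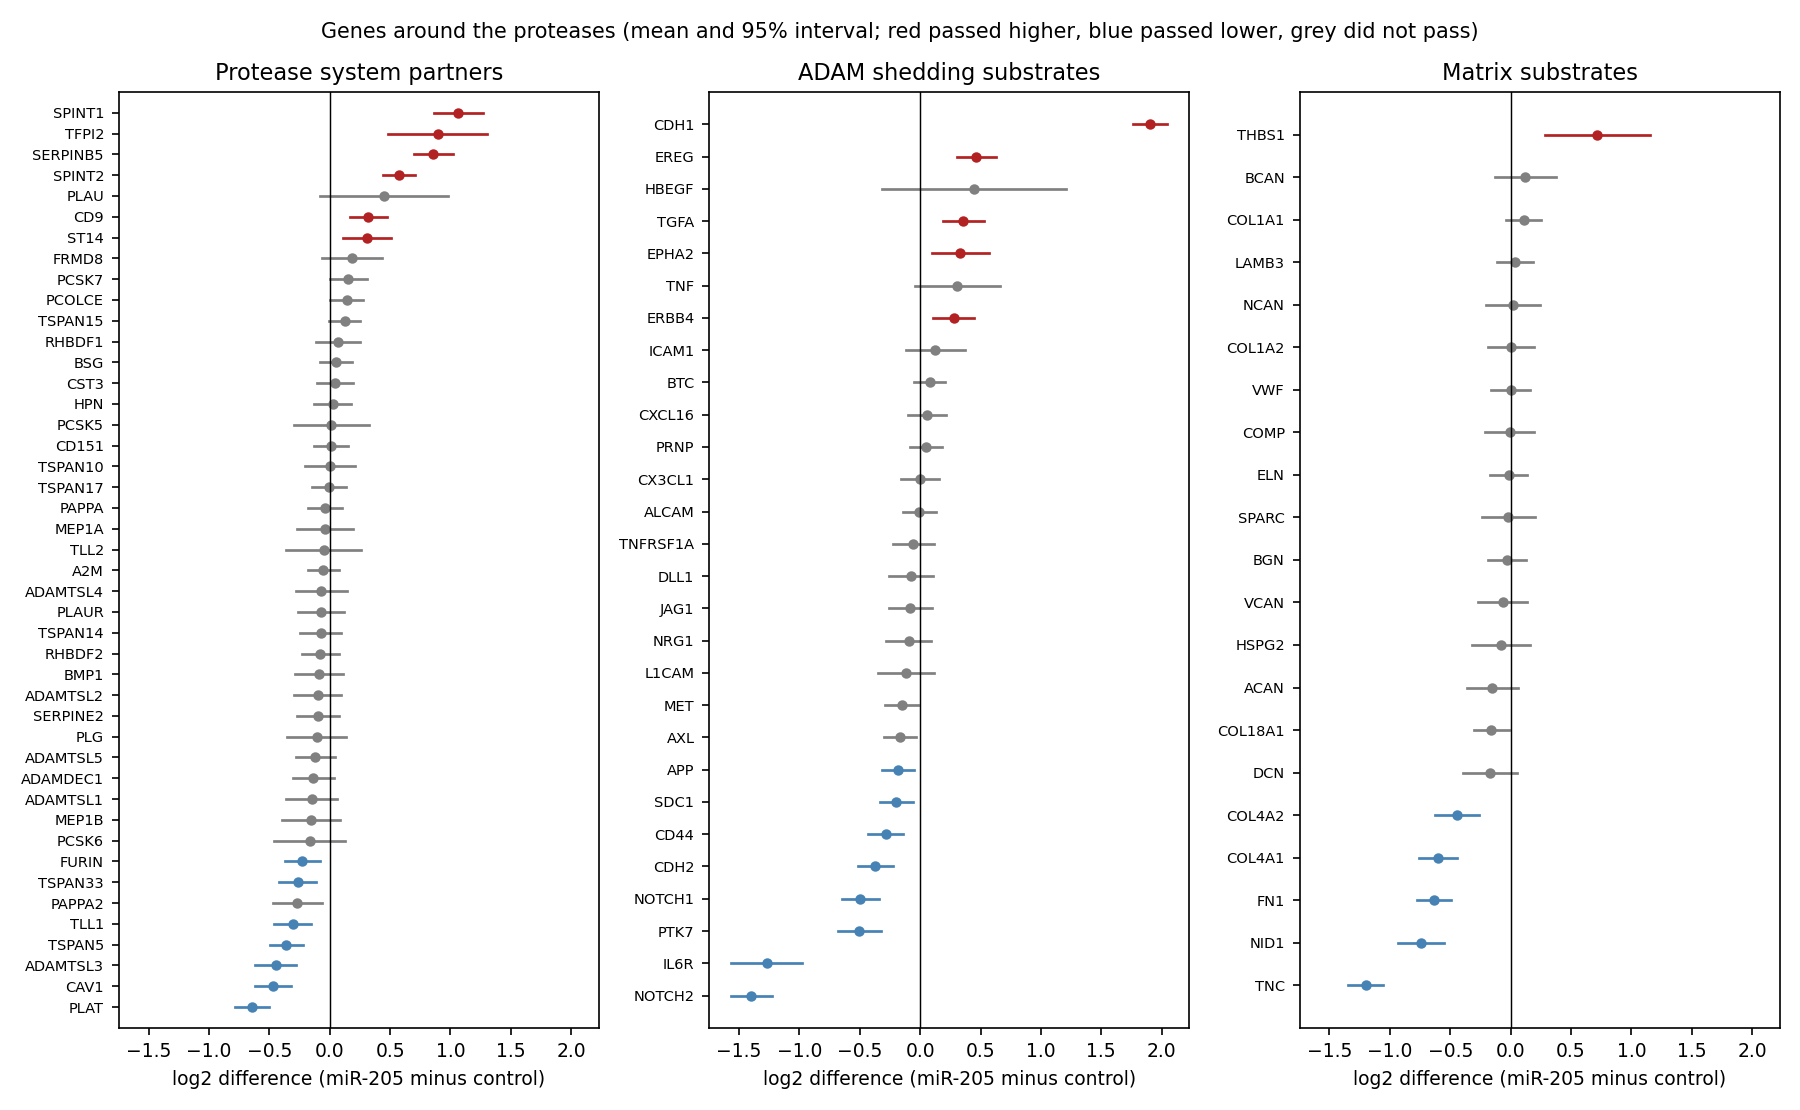
Log2 difference between miR-205 and negative control mimic with the 95% interval from limma for 44 protease system partners, 28 shedding substrates and 21 matrix substrates; red genes passed higher, blue genes passed lower and grey genes did not pass. SPINT1 (1.07) and PLAT (-0.64) mark the ends of the partner list, CDH1 (1.91) and NOTCH2 (-1.40) those of the shedding substrates, and TNC (-1.20) is the lowest matrix gene.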

How the data were processed

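RNA from AGO2 immunoprecipitates of PC3 cells (3 arrays with a miR-205 mimic, 3 with a negative control mimic) was measured on Affymetrix gene arrays. The deposited values are log2 intensities from RMA. Per the submitters' processing notes, the authors ran it in version 1.1.2 of Affymetrix Expression Console. The values were used without further normalization. The array annotation build is not given in the sources used here. Of 33297 probe sets, 19460 carried 1 gene symbol, which gave 18417 genes after the probe set with the highest mean was taken per gene. All 65 members were found in the RefSeq gene table.

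A linear model with a single term for the group was fitted by limma (version 3.58.1, R version 4.3.3) and moderated with eBayes. Tests were two-sided, and p-values were adjusted by Benjamini-Hochberg over the 18417 genes, with a threshold of 0.05. Differences are miR-205 minus control on the log2 scale, ± SE, with n = 3 per group. The steps were checked on simulated data. Members, gene lists, activity classes and the choice of named genes were made with earlier results of these data known. Named were 18 fixed members, every further member past the threshold, up to 5 genes per related list with the smallest p and up to 2 of the rarer direction, and the largest change that missed the threshold in each direction. The number of arrays limits the precision. The 15 alternatives were quantile normalization, median centring, 2 filters on dim genes, the mean of a gene's probe sets, all probe sets tested, a robust variance that follows a trend, weights per array, a block for the replicate number, and fits that each left out 1 array.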

Additional observations from a re-analysis of the deposited data

How the results depend on the processing

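All 15 members that passed kept their direction under the 15 alternatives, as far as each tested them, and 9 passed under every one: MMP14, MMP10, RECK, TIMP1, ADAM12, ADAM10, ADAM15, ADAM19 and ADAM17. The count of members that rose, 5, became 3 with only genes above the median of all genes, 3 with all probe sets tested, and 3 to 5 with 1 array left out (3 without any 1 of the miR-205 arrays). The count that fell, 10, became 6 to 12 with 1 array left out, the least without miR-205 replicate 2. Shedding substrates that rose, 5, became 1 with only genes above the median, 3 with all probe sets tested and 3 to 6 with 1 array left out (3 without miR-205 replicate 1 or 2 or negative control replicate 1). Matrix substrates that rose, 1, became 0 with all probe sets tested, 0 with a robust variance with a trend and 0 to 1 with 1 array left out. In each of these limma fits 1 had an unadjusted p under 0.05. The cause of these shifts was not tested, beyond the fewer genes or arrays that some settings hold. With the replicate number as a block, 5 members rose and 9 fell, ADAM11 no longer passed, and 2204 genes rose and 2423 fell in all, against 2320 and 2586. The block lowered the SE of some called members (MMP16, 0.105 to 0.066) and raised that of others (ADAM17, 0.061 to 0.068). Deviations of same-numbered arrays correlated at 0.06, 0.09 and 0.01, which is low. Yet 5 of 6 arrays correlated best with their own number, a hint from the data and not from the design. Whether the numbers pair the arrays was therefore not settled, and the main fit left them out. Signal near background limits 28 of the 65 genes.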

Other observations

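Markers listed only to check for other cells held changes of their own. The endothelial genes PECAM1, an adhesion molecule, and KDR, a receptor for VEGF, were lower with miR-205. PECAM1 read 6.27, 6.37 and 6.28 with miR-205 and 7.06, 7.44 and 7.35 in the control, a difference of -0.98 ± 0.10 (limma adjusted p = 0.000227). KDR read 7.61, 7.52 and 7.96 against 8.48, 8.51 and 8.92, a difference of -0.94 ± 0.14 (limma adjusted p = 0.00184). The other endothelial markers, CDH5 and VWF, did not pass and lay below the olfactory receptor reference.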
